A study of Homo sapiens with 12 samples.

Results

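RNA levels after knockdown of TDP43 were compared directly with those after knockdown of SRSF3 in MDA-MB231, an established triple-negative, mesenchymal-like breast cancer cell line. The comparison used the 2 libraries labelled sh-TDP43 and the 2 labelled sh-SRSF3 (written sh_TDP43 and sh_SRSF3 here), 4 of the 12 samples of the series, chosen by their labels and not by any measured value. Cells of each group had been treated with a short hairpin RNA (sh) against TDP43 or against SRSF3, and how the hairpins were delivered and for how long is not stated in the labels. The 2 libraries labelled sh-control (sh_control here), from cells treated with a control hairpin, were used to give the direction of each change and to find genes that moved in opposite ways in the knockdowns. All 3 groups share the cell line, and no other allele or agent is named. The column names of the count table show 1 hairpin number per target, so an effect of a hairpin cannot be told apart from an effect of losing its target. The labels do not say whether duplicates came from separate cultures. RNA immunoprecipitation (RIP) against Flag in MDA-MB231 cells that overexpressed Flag-tagged TDP43 or Flag-tagged SRSF3, each with 1 RIP and 1 input library, was used as a separate readout.

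TDP43, encoded by TARDBP, and SRSF3 are nuclear proteins that bind RNA and act in splicing. TDP43 binds UG-rich stretches, keeps cryptic exons out of mRNA and limits its own level through its own transcript. SRSF3 is the smallest of the serine- and arginine-rich (SR) proteins; it promotes exon inclusion, takes part in the choice of polyadenylation site and links spliced mRNA to the export receptor NXF1. Changes measured here are in the RNA level per gene. In bulk RNA, fewer cells of a kind and less RNA per cell cannot be told apart.

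Counted reads ranged from 34457445 to 38326930 per library, and 16902 to 18416 genes had at least 1 read. In no group were the 2 libraries repeat deposits of each other: the chi-square per gene between partners was 24.7 in sh_control, 13 in sh_TDP43 and 12 in sh_SRSF3. The median absolute log2 ratio between the 2 libraries of a group was 0.13 in each knockdown and 0.16 in sh_control, against 0.56 between the means of the knockdowns. Vimentin (VIM), which marks the mesenchymal state of this line, had 64050 to 89122 reads per library, and the progesterone receptor gene PGR had 0 or 1. PGR is 1 of 15 listed markers of luminal breast epithelium, and others were read in every library. KRT8 had 26680 to 38778 reads, KRT19 7432 to 11031 and GATA3 309 to 449, while FOXA1 had at most 10. The 8 listed markers of embryonic kidney cells, another common laboratory line, had at most 4 reads in any library.

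The targeted genes came first, since they check the labels. TARDBP (ENSG00000120948, GRCh37 chromosome 1, 11072401 to 11086477) was at 34.4 and 31.3 CPM (counts per 1e6 counted reads, scaled by the trimmed mean of M values, TMM) in the sh_TDP43 libraries, 108 and 102 in sh_SRSF3, and 168 and 125 in sh_control. Its level was thus lowest under its own hairpin, with no overlap between groups. The direct log2 difference, sh_TDP43 minus sh_SRSF3, was -1.67 (SE 0.13, adjusted p = 7.28e-08 by edgeR's quasi-likelihood test). For SRSF3, located at chromosome 6, 36562130 to 36573377, levels were 64.1 and 61.7 CPM in sh_SRSF3, 187 and 180 in sh_TDP43, and 459 and 404 in sh_control. Both knockdowns therefore held less SRSF3 RNA than the control libraries, and the direct difference was 1.55 (SE 0.10, adjusted p = 1.15e-08). The 2 groups compared here thus differ in the RNA of both targets, and in neither gene is 1 knockdown at the control level.

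Of 15026 genes tested, 9842 (65.5%) differed between the knockdowns at an adjusted p under 0.05 (edgeR), 5041 (33.5%) higher in sh_TDP43 and 4801 (32%) higher in sh_SRSF3. With upper-quartile scaling in place of TMM the split was 6451 to 3378, and the median log2 difference of all genes moved by 0.25, from 0.04 with TMM. List medians given here move by about as much, and differences of about this size have no settled direction. The libraries of the 2 groups did not overlap in 12597 genes (83.8%). Large differences were unevenly divided. At least 2-fold differences numbered 3006 toward sh_TDP43 and 1589 toward sh_SRSF3, and at least 4-fold differences 1364 and 258. With upper-quartile scaling the 2-fold counts were 3753 and 973. Much of the excess was among rarely read genes. Among the 10488 genes with a mean of at least 5 CPM over the 4 libraries, 2-fold differences numbered 1395 and 1257, and 4-fold differences 369 and 124. At most 3 reads over both sh_SRSF3 libraries were counted for 283 tested genes, and at most 3 over both sh_TDP43 libraries for 21. The sh_SRSF3 libraries also had the fewest genes with any read, 16902 and 17101 against 17999 and 18269 in sh_TDP43, and the part of this in the low-level excess was not tested.

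**Figure D1:**
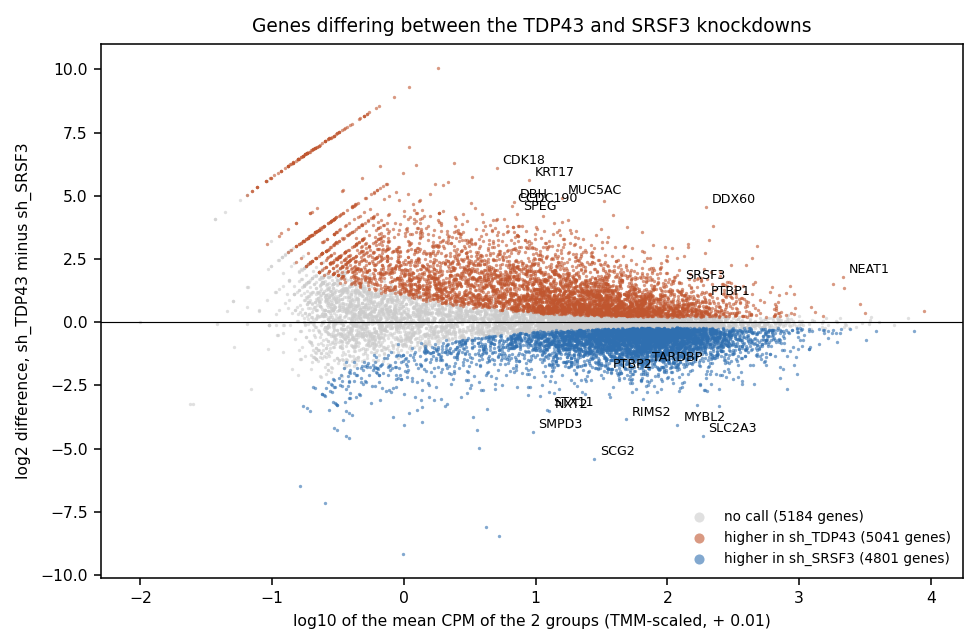
Log2 difference, sh_TDP43 minus sh_SRSF3, of each gene tested (vertical) against log10 of its mean CPM in the 2 groups (horizontal), 1 point per gene, coloured by the edgeR call. The 5041 genes higher in sh_TDP43 reach larger differences than the 4801 higher in sh_SRSF3, most of all at the left, where the diagonal streaks are genes with few or no reads in 1 group and a fitted fold that is no measured size.

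**Figure D2:**
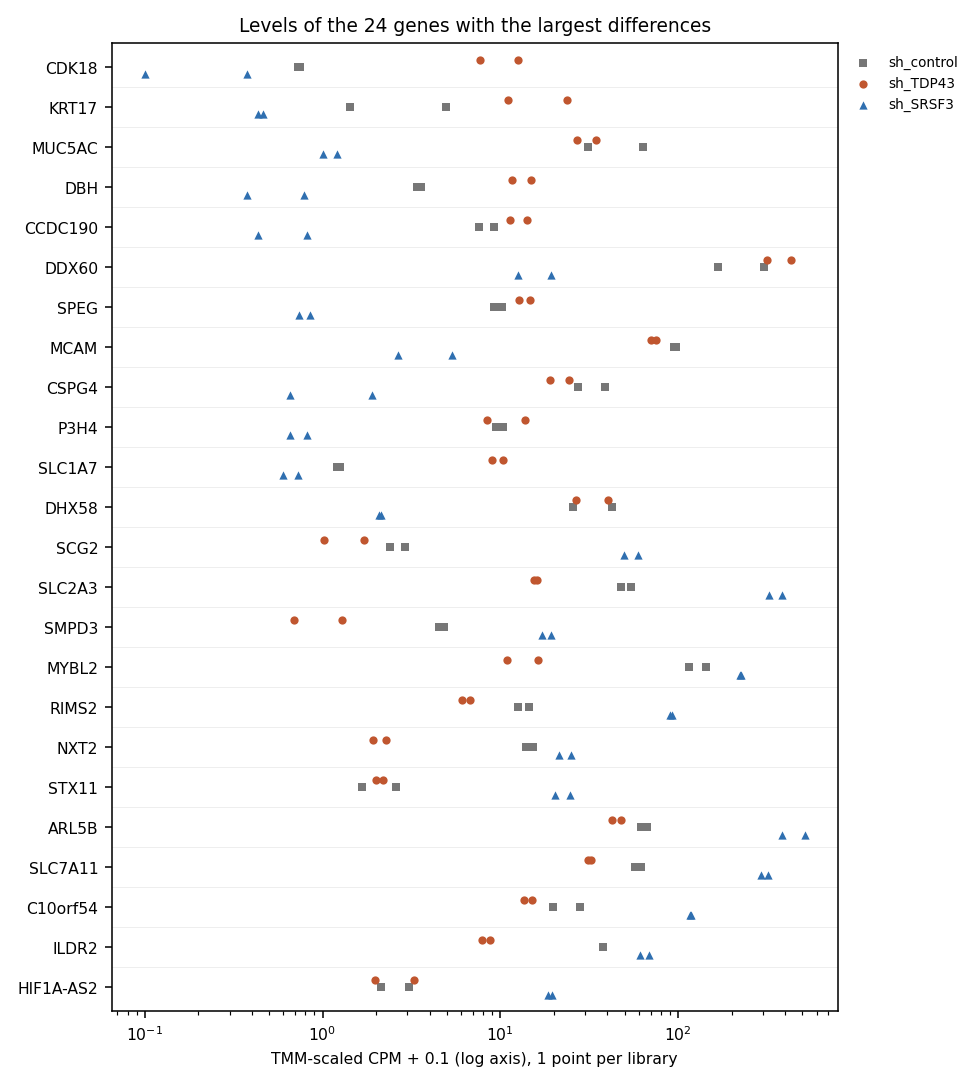
CPM + 0.1 (log axis) in each of the 6 libraries for the 12 named genes with the largest difference in each direction. In every gene shown the sh_TDP43 points and the sh_SRSF3 points do not overlap, which the choice of these genes required.

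Largest differences toward sh_TDP43 were 4.06 to 6.09 on the log2 scale for the 12 genes ranked highest (adjusted p 1.52e-09 to 1.22e-06). They include KRT17, an epithelial keratin, the gel-forming mucin gene MUC5AC, the cell-surface adhesion gene MCAM, the proteoglycan gene CSPG4, and DDX60 and DHX58, which act in the sensing of viral RNA. MCAM (chromosome 11, 119179239 to 119192231) was at 70.6 and 75.3 CPM in sh_TDP43, 5.26 and 2.55 in sh_SRSF3, and 94.8 and 97.4 in sh_control. The sh_SRSF3 libraries stood far below the other 4, and the direct difference was 4.23 (SE 0.21). DDX60 (chromosome 4, 169137444 to 169239958) was at 317 and 433 CPM in sh_TDP43, 12.4 and 19.2 in sh_SRSF3, and 167 and 302 in sh_control, a direct difference of 4.57 (SE 0.27). CSPG4 was at 24.3 and 18.8 CPM against 1.8 and 0.554, with 27.1 and 38.5 in sh_control. MUC5AC was at 26.8 and 34.2 CPM against 0.901 and 1.11, with 31 and 63.6 in sh_control. In these 4 genes most of the distance lay between sh_SRSF3 and the other groups. CDK18, a kinase gene of the cyclin-dependent family, and SLC1A7, a glutamate transporter gene, had another order. CDK18 had 279 and 463 reads in sh_TDP43, 0 and 10 in sh_SRSF3, and 24 in each control library. SLC1A7 was at 10.3 and 8.82 CPM in sh_TDP43, 0.631 and 0.499 in sh_SRSF3, and 1.16 and 1.1 in sh_control, a direct difference of 4.07 (SE 0.28). For both, the high values were those of sh_TDP43.

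Largest differences toward sh_SRSF3 were 2.91 to 5.42 on the log2 scale over the 12 genes ranked highest (adjusted p 4.19e-11 to 1.50e-07). They include the secretory granule gene SCG2, the neuronal-type glucose transporter gene SLC2A3, the sphingomyelinase gene SMPD3, MYBL2, a transcription factor of cycling cells, RIMS2, which acts in vesicle release, NXT2, a cofactor of the mRNA export receptor, and SLC7A11, the cystine transporter. SCG2 (chromosome 2, 224461658 to 224467221) was at 49.3 and 59.5 CPM in sh_SRSF3, 0.923 and 1.6 in sh_TDP43, and 2.8 and 2.3 in sh_control, a direct difference of -5.42 (SE 0.21). SLC2A3 (chromosome 12, 8071826 to 8088871) was at 323 and 385 CPM in sh_SRSF3, 15.4 and 15.9 in sh_TDP43, and 47.4 and 54.4 in sh_control, a direct difference of -4.50 (SE 0.12). For both, the control libraries lay between the knockdowns. MYBL2 (chromosome 20, 42295659 to 42345136) was at 225 and 224 CPM in sh_SRSF3, 16.2 and 10.8 in sh_TDP43, and 143 and 115 in sh_control, a direct difference of -4.06 (SE 0.17). NXT2 was at 21.3 and 24.8 CPM against 1.82 and 2.17, with 13.9 and 15.1 in sh_control. In MYBL2 and NXT2 the low sh_TDP43 values made most of the distance. STX11, a syntaxin gene, and the antisense transcript HIF1A-AS2 differed mainly through sh_SRSF3. STX11 was at 20.1 and 24.5 CPM in sh_SRSF3, 1.9 and 2.09 in sh_TDP43, and 2.48 and 1.57 in sh_control. HIF1A-AS2 was counted without strand, so its reads cannot be told apart from those of HIF1A; HIF1A itself was lower in sh_SRSF3, at 140 and 139 CPM against 261 and 230 in sh_TDP43.

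Genes that moved in opposite ways from sh_control, each change passing the test, numbered 1357 (9.03% of genes tested). Of them 560 (3.73%) rose in sh_TDP43 and fell in sh_SRSF3, and 797 (5.3%) fell in sh_TDP43 and rose in sh_SRSF3. Which class is larger depends on the scaling: with upper-quartile scaling they numbered 907 and 473. Of all genes tested, 6728 (44.8%) changed from sh_control in sh_TDP43 and 10045 (66.9%) in sh_SRSF3. The knockdowns were each set against the same 2 control libraries, so an error in those libraries moves both changes the same way. Median changes from sh_control were 0.65 in sh_TDP43 and -0.96 in sh_SRSF3 for the 560, and -0.52 and 0.61 for the 797. Both changes were at least 1.5-fold in 270 and 186 genes (410 and 104 with upper-quartile scaling), and at least 2-fold in 104 and 17. Without sh_TDP43 replicate 2 the count was 811, of which 795 were among the 1357. Across 11 alternatives of tool, scaling, filter, block and left-out libraries, 552 of the 1357 kept both calls, 209 up in sh_TDP43 and 343 up in sh_SRSF3.

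**Figure D3:**
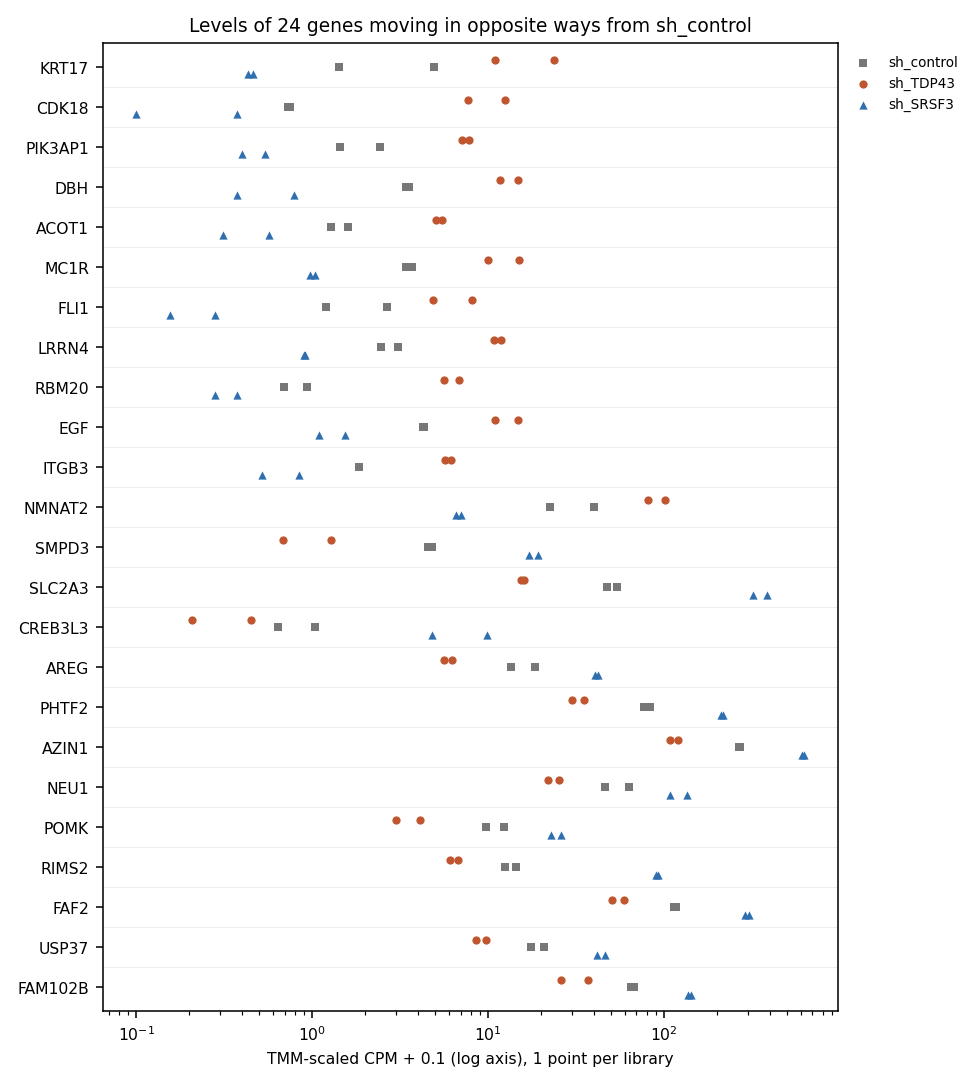
CPM + 0.1 (log axis) in each library for the 24 genes in which the smaller of the opposite changes was largest, 12 up in sh_TDP43 above and 12 up in sh_SRSF3 below. The control points lie between the points of the knockdowns in every gene shown, which the choice of these genes required.

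Ranked by the smaller of their changes, the 12 genes up in sh_TDP43 and down in sh_SRSF3 include KRT17, DBH, which makes noradrenaline, PIK3AP1, an adaptor of PI3-kinase signalling, the melanocortin receptor gene MC1R, the splicing regulator gene RBM20, the growth factor gene EGF, the integrin gene ITGB3 and NMNAT2, an NAD-synthesising enzyme. NMNAT2 (chromosome 1, 183217372 to 183387737), the most read of them, was at 81.6 and 101 CPM in sh_TDP43, 22.5 and 40.1 in sh_control, and 6.52 and 6.93 in sh_SRSF3. From sh_control, its log2 level rose by 1.55 with the TDP43 hairpin (SE 0.20, adjusted p = 2.60e-05) and fell by 2.22 with the SRSF3 hairpin (SE 0.22, adjusted p = 7.24e-07). KRT17 was at 10.9 and 23.7 CPM in sh_TDP43, 1.32 and 4.83 in sh_control, and 0.361 and 0.332 in sh_SRSF3. Its control libraries differed more from each other than those of most genes. No group overlapped another, but the choice of these 12 genes required that. EGF was at 10.9 and 14.8 CPM in sh_TDP43, 4.17 and 4.23 in sh_control, and 0.991 and 1.44 in sh_SRSF3. RBM20 was at 5.56 and 6.79 CPM, 0.592 and 0.835, and 0.18 and 0.277 in the same order of groups. Most of the 12 had few reads in sh_SRSF3, for example 6 and 10 for RBM20 and 12 in each library for KRT17. The fall of CDK18 in sh_SRSF3 was lost with DESeq2 (adjusted p = 0.171), and the rise of FLI1, an ETS transcription factor gene with 6 and 2 reads in sh_SRSF3, was lost without sh_TDP43 replicate 2. ACOT1 has a near-identical neighbour, ACOT2, and the counting could lose or split reads that match both, so its level is uncertain.

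In the other direction, the 12 genes down in sh_TDP43 and up in sh_SRSF3 include SLC2A3, SMPD3 and RIMS2, the EGF receptor ligand gene AREG, AZIN1, which shields ornithine decarboxylase from its antizyme, the sialidase gene NEU1, FAF2, which acts in degradation from the endoplasmic reticulum, and the deubiquitinase gene USP37. AZIN1 (chromosome 8, 103838585 to 103906092) was at 120 and 108 CPM in sh_TDP43, 268 and 270 in sh_control, and 629 and 612 in sh_SRSF3. Its libraries differed little within each group, and the direct difference was -2.45 (SE 0.10, adjusted p = 3.14e-10). AREG was at 6.19 and 5.53 CPM in sh_TDP43, 13.5 and 18.5 in sh_control, and 42.1 and 40.7 in sh_SRSF3. PHTF2, of unsettled function, was at 35.3 and 30.2 CPM, 83 and 76.9, and 211 and 217 in the same order. FAF2 was at 59.4 and 50.4, 115 and 117, and 288 and 305. CREB3L3, a transcription factor gene, had 4 and 13 reads in sh_TDP43, and its fall there was lost without sh_TDP43 replicate 1 (adjusted p = 0.225) or control replicate 2 (adjusted p = 0.19). EGF and AREG, which encode ligands of the same receptor, thus went opposite ways, while EGFR itself had 16715 to 21807 reads per library and a direct difference of -0.06 (adjusted p = 0.634).

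Gene lists were read against the shares over all genes tested, 33.5% higher in sh_TDP43 and 32% higher in sh_SRSF3. Of 32 lists, those of the interferon response and inflammatory cytokines stood at the sh_TDP43 end, and those of DNA replication, chaperones, and mRNA export with nonsense-mediated decay at the sh_SRSF3 end. These are descriptions of counts and medians, with no test of the list. Where a list's changes from sh_control are given, the shares over all genes tested are those above, 44.8% changed in sh_TDP43, 66.9% in sh_SRSF3 and 9.03% in opposite ways.

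**Figure D4:**
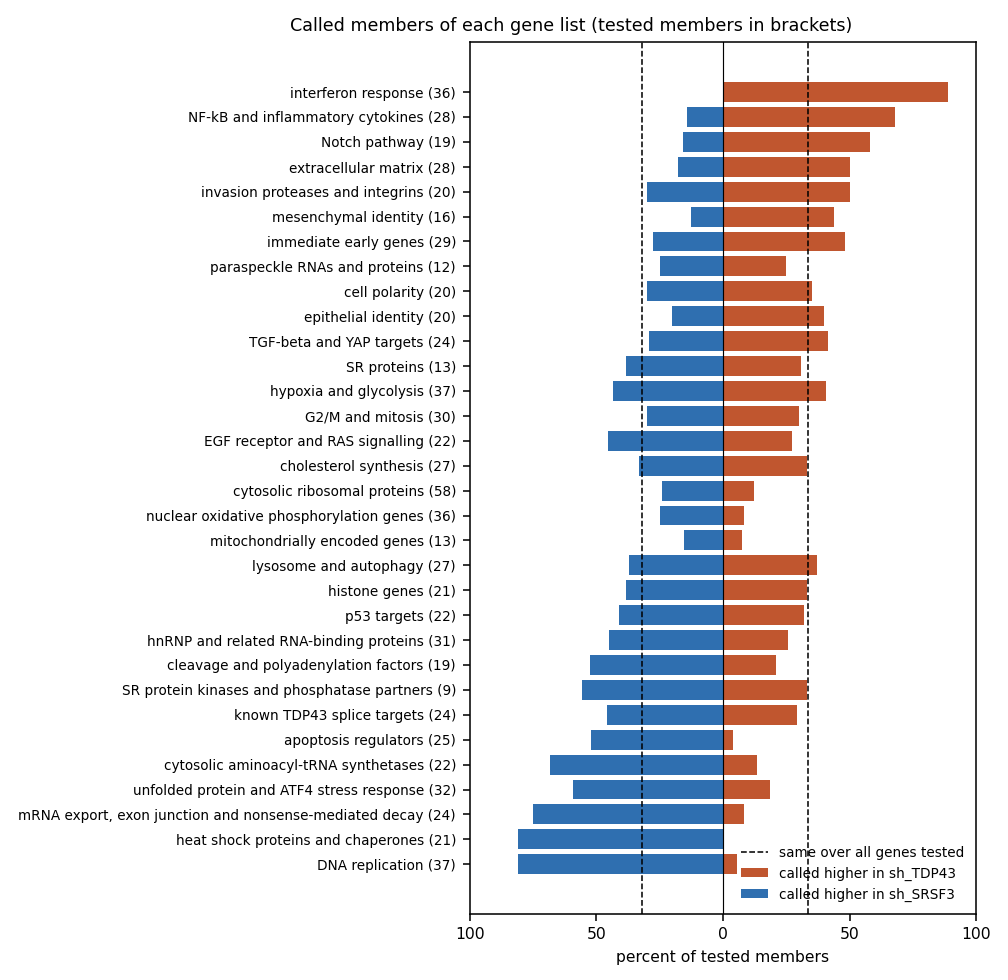
Percent of the tested members of each gene list that were called higher in sh_TDP43 (right) or higher in sh_SRSF3 (left), ordered by the list's median log2 difference, with dashed lines at 33.5% and 32%, the shares over all genes tested. Of the 36 interferon genes 32 were called higher in sh_TDP43, and of the 37 DNA replication genes 30 were called higher in sh_SRSF3.

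Interferon-response genes, which encode antiviral effectors and sensors and are commonly driven through a promoter element named ISRE, were higher in sh_TDP43 than in sh_SRSF3. Of 36 tested, 32 were higher in sh_TDP43 and 0 in sh_SRSF3, with a median direct difference of 1.33; the 4 without a call were IRF7, IRF9, USP18 and TAP1. IFIT3, which inhibits viral replication, was at 679 and 1023 CPM in sh_TDP43, 107 and 105 in sh_SRSF3, and 550 and 916 in sh_control. XAF1, an interferon-induced apoptosis gene, was at 14.6 and 21.7 CPM in sh_TDP43, 1.14 and 2.11 in sh_SRSF3, and 14.9 and 38.1 in sh_control. ISG15, a ubiquitin-like modifier, was at 365 and 517 CPM against 136 and 154, with 407 and 523 in sh_control. In all 3 genes the sh_SRSF3 libraries were the low ones, and the spread within sh_TDP43 and within sh_control was wide. Against sh_control, 33 of the 36 fell in sh_SRSF3 and 0 rose, while in sh_TDP43 12 fell and 4 rose. The share that changed in sh_TDP43 was thus near the 44.8% over all genes tested. Small differences among the called were those of HERC5 (0.58), which attaches ISG15 to proteins, and of the signal transducer STAT2 (0.63).

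Promoters of these genes show the element in their letters. The core, GAAA, any 2 bases and GAAA, searched on both strands in the 250 bases upstream of each RefSeq start (GRCh38.p14), was found in 18 of 28 interferon-list genes with a promoter entry (64.3%), against 3.42% of genes tested and 3.71% of all genes in the table. Matches can overlap each other, as in ISG15. Shown are stretches of 3 members with a match whose levels are given above, 5′ to 3′ on the gene's strand, with matches in capitals, either as the core or as its reverse complement. They lie at chr4:168318784-168318852 (minus strand), chr10:89327829-89327896 (plus strand) and chr1:1013372-1013411 (plus strand).
DDX60: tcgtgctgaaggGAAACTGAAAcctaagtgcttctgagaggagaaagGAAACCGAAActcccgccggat
IFIT3: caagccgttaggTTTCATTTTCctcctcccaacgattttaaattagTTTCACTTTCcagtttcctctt
ISG15: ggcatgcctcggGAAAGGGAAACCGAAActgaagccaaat
DDX60 and IFIT3 each hold 2 separate matches, and ISG15 holds 2 that share 4 bases. A match is a description of the letters and not a measured binding site.

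Inflammatory cytokines and other NF-kB targets were mostly higher in sh_TDP43, 19 of 28 tested, with 4 higher in sh_SRSF3 and a median direct difference of 1.29. Against sh_control, 3 rose and 5 fell in sh_TDP43 (median 0.15), and 5 rose and 17 fell in sh_SRSF3 (median -1.07). The cytokine gene IL6 was at 39.8 and 51.5 CPM in sh_TDP43, 6.19 and 8.7 in sh_SRSF3, and 47.2 and 85.5 in sh_control. IL11, a cytokine of the IL6 family, was at 15.9 and 10.9 CPM against 1.56 and 0.97, with 129 and 102 in sh_control, so it was below control in both knockdowns and lowest in sh_SRSF3. SOD2, the mitochondrial superoxide dismutase and an NF-kB target, moved in opposite ways, with 137 and 169 CPM in sh_TDP43, 103 and 108 in sh_control, and 69.2 and 57.5 in sh_SRSF3. ICAM1, an adhesion receptor of leukocytes, was at 65.5 and 101 CPM against 10.3 and 10.7, with 13.4 and 34.7 in sh_control. NFKB1 itself went the other way, with 58.9 and 69.3 CPM in sh_TDP43 and 112 and 111 in sh_SRSF3, as did the apoptosis inhibitor BIRC3, with 50.1 and 86.7 against 140 and 184. Markers of haematopoietic cells, which also express such genes, moved with these lists: 5 of 6 tested were higher in sh_TDP43 and 0 in sh_SRSF3. Their summed level was 136 and 158 CPM in sh_TDP43, 66.5 and 65.4 in sh_SRSF3, and 225 and 284 in sh_control, most of it from CD68 and LAPTM5. CD68 had 2627 and 3031 reads in sh_TDP43, 1215 and 1383 in sh_SRSF3, and 4376 and 5602 in sh_control. LCP1 moved in opposite ways, with 538 and 655, 181 and 219, and 289 and 413 reads in the same order. PTPRC had 103 and 46 reads in sh_TDP43 and 8 and 4 in sh_SRSF3, HBB had 0 in every library, and CD3E, ITGAM and SPI1 had at most 6. The part of such cells in these results was not tested.

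DNA replication genes, which license origins, unwind DNA and copy it, were higher in sh_SRSF3 than in sh_TDP43. Of 37 tested, 30 were higher in sh_SRSF3 and 2 in sh_TDP43, with a median direct difference of -0.96. Against sh_control, 33 fell and 1 rose in sh_TDP43, while 17 rose and 10 fell in sh_SRSF3, and 15 moved in opposite ways, against 9.03% of all genes tested. The share that changed in sh_SRSF3 in either direction was near the 66.9% over all genes. Among the subunits of the MCM helicase, MCM6 was at 75.9 and 57.5 CPM in sh_TDP43, 109 and 100 in sh_control, and 210 and 205 in sh_SRSF3. MCM7 was at 307 and 264, 481 and 391, and 736 and 700 in the same order. PCNA, the sliding clamp, was at 102 and 80.7 CPM in sh_TDP43, 192 and 166 in sh_control, and 384 and 374 in sh_SRSF3, a direct difference of -2.06 (SE 0.12, adjusted p = 5.65e-09). In all 3 the control libraries lay between the knockdowns. The licensing factors CDC6 (-1.76) and CDT1 (-1.33), the clamp loader gene RFC4 (-1.16), the polymerase subunit gene POLE2 (-1.29), MCM10 (-1.53) and the transcription factor gene E2F2 (-2.13) moved in opposite ways in each of the 11 alternatives named above. GINS2, a subunit of the replicative helicase, fell in both knockdowns, to 2.28 and 1.84 CPM in sh_TDP43 and 13.9 and 10.7 in sh_SRSF3 from 34.7 and 28 in sh_control. The exceptions were LIG1, which joins Okazaki fragments, and POLD1, a polymerase subunit, with direct differences of 0.72 and 0.44.

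E2F factors activate many of these genes at a TTTCCCGC or TTTGGCGC site. One of these letter strings, on either strand of the 250 bases upstream, was found in 13 of 33 DNA replication genes with a promoter entry (39.4%), against 3.75% of genes tested and 2.36% of all genes in the table. Shown are 3 of the members that moved in opposite ways, with matches or their reverse complements in capitals, at chr2:135876514-135876607, chr20:5126662-5126693 and chr1:23531256-23531287 (GRCh38.p14, all minus strand).
MCM6: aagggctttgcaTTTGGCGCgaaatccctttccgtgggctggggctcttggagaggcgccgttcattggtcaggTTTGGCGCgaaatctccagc
PCNA: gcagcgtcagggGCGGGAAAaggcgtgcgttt
E2F2: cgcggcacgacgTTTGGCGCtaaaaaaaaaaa
MCM6 holds 2 matches, and PCNA and E2F2 hold 1 each. Direct differences of the matched genes not shown ran from -2.58 for GINS2 to 0.72 for LIG1, an exception named above. Small ones were those of POLA1 (0.07), RFC3 (-0.30) and TYMS (-0.43). Of all genes down in sh_TDP43 and up in sh_SRSF3, 5.35% of the 673 with a promoter entry had a match, and 2.58% of the 426 moving the other way.

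Genes of mitosis, in contrast, had no common direction. Of 30 tested, 9 were higher in each knockdown, and the median of -0.06 turned to 0.19 with upper-quartile scaling. The proliferation marker gene MKI67 was at 596 and 457 CPM in sh_TDP43, 747 and 879 in sh_control, and 1260 and 1084 in sh_SRSF3, and AURKB, a mitotic kinase, at 89.2 and 90.4, 123 and 115, and 196 and 169. CCNA2, cyclin A2, went the other way, with 166 and 126 CPM in sh_TDP43, 181 and 187 in sh_control, and 36.7 and 27.5 in sh_SRSF3 (direct 2.19, SE 0.14). The kinesin gene KIF20A, at 125 and 99.8 CPM against 53.1 and 38.3, and the checkpoint kinase gene BUB1 (direct 1.14) were also higher in sh_TDP43.

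Genes of the unfolded protein response and of ATF4, a transcription factor that switches on amino acid supply under stress, leaned toward sh_SRSF3: 19 of 32 tested were higher there and 6 in sh_TDP43, with a median of -0.59. Against sh_control, 18 rose and 7 fell in sh_SRSF3, while 9 rose and 13 fell in sh_TDP43. Opposite movers numbered 6 of the 32, among them ATF4, SLC7A11, ASNS and SHMT2. ATF4 was at 187 and 200 CPM in sh_TDP43, 262 and 266 in sh_control, and 475 and 515 in sh_SRSF3, a direct difference of -1.35 (SE 0.09). Among amino acid genes, SLC7A11 was at 32.4 and 30.9 CPM in sh_TDP43, 61.5 and 57.3 in sh_control, and 322 and 292 in sh_SRSF3. Its partner chain SLC3A2 was at 233 and 215, 262 and 232, and 1416 and 1395, so its distance came almost wholly from sh_SRSF3. Asparagine synthetase, ASNS, was at 28.3 and 27.4 CPM, 46.8 and 41.6, and 97.2 and 110, and the mitochondrial enzyme gene SHMT2 at 133 and 115, 227 and 201, and 340 and 317. DDIT3, which encodes the stress factor CHOP, was at 21.3 and 21.5 CPM, 13 and 14.8, and 99.8 and 111. The exceptions included ATF5 (direct 1.46), below control in both knockdowns, and STC2, a secreted glycoprotein gene, with 25.8 and 25 CPM in sh_TDP43 against 5.14 and 3.24 in sh_SRSF3 and 3.98 and 5.82 in sh_control.

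Cytosolic aminoacyl-tRNA synthetases, which charge tRNAs and of which several are ATF4 targets, leaned the same way, 15 of 22 higher in sh_SRSF3 and 3 in sh_TDP43, with a median of -0.53. Against sh_control, 14 rose and 4 fell in sh_SRSF3, while 3 rose and 7 fell in sh_TDP43. Opposite movers numbered 5, among them AARS and YARS. AARS was at 117 and 120 CPM in sh_TDP43, 167 and 139 in sh_control, and 464 and 469 in sh_SRSF3. YARS was at 66.4 and 66, 120 and 109, and 243 and 244. WARS, which is also induced by interferon, was higher in sh_TDP43, at 167 and 193 CPM against 100 and 107. The string TGATGNAA, the composite site of ATF4 and CHOP, was found in 4 of 30 genes of the first list (13.3%) and 3 of 18 synthetase genes (16.7%), against 2.4% of genes tested and 3.89% of all genes in the table. Shown are the stretches of the ATF4-list gene and of the synthetase gene that hold a match and have the largest difference of their list among those with one, at chr7:97872457-97872488 and chr16:70289674-70289705 (both minus strand).
ASNS: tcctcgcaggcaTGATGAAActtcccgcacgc
AARS: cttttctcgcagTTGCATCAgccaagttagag
The match reads as the string itself in ASNS and as its reverse complement in AARS. The other 3 ATF4-list genes with a match had no call, with direct differences of 0.23 for ATF3, -0.07 for HERPUD1 and -0.05 for CHAC1.

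Heat shock proteins and chaperones, which fold client proteins, were higher in sh_SRSF3 in 17 of 21 tested and in sh_TDP43 in 0, with a median of -0.77. Against sh_control, 18 rose and 1 fell in sh_SRSF3, while 3 rose and 7 fell in sh_TDP43. Of the 21, 6 moved in opposite ways. DNAJB6 was at 339 and 320 CPM in sh_TDP43, 453 and 414 in sh_control, and 1218 and 1137 in sh_SRSF3 (direct -1.84, SE 0.10, adjusted p = 2.99e-09). The regulator HSF1 was at 80 and 74.6 CPM, 123 and 103, and 193 and 190. TCP1, a subunit of the cytosolic chaperonin, was at 210 and 176, 307 and 253, and 448 and 418. These 3 and DNAJA1 moved in opposite ways in each of the 11 alternatives. HSPA4, HSPB1, HSPD1 and BAG3 had no call. The heat shock element, searched as GAA, TTC and GAA with any 2 bases between them or as TTC, GAA and TTC likewise spaced, was found in 5 of 20 genes of the list (25%), against 0.47% of genes tested and 0.557% of all genes in the table. Of the 5, DNAJB6 had the largest difference, and its match lies within chr7:157336861-157336897 (plus strand).
DNAJB6: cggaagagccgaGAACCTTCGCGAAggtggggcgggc
The capitals mark the 13-letter match. The other 4 genes with a match had smaller differences, -0.72 for HSP90AA1, -0.27 for HSP90AB1, -0.26 for HSPA8 and -0.17 for HSPD1, which had no call.

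Factors of mRNA export, the exon junction complex and nonsense-mediated decay were higher in sh_SRSF3 in 18 of 24 tested and in sh_TDP43 in 2, with a median of -0.61. The export helicase gene DDX39A was at 706 and 664 CPM in sh_SRSF3, 220 and 210 in sh_TDP43, and 208 and 166 in sh_control. NXF1, the export receptor that SRSF3 is known to recruit, was at 173 and 181 CPM, 96.5 and 103, and 88.6 and 87 in the same order, a direct difference of -0.82 (SE 0.09). UPF3B, a decay factor, was at 108 and 112, 48 and 51, and 45.6 and 35.4. For these 3 the sh_TDP43 libraries lay near the control libraries. CASC3, of the exon junction complex, fell in both knockdowns, to 45.3 and 39.4 CPM in sh_TDP43 and 28.1 and 27.5 in sh_SRSF3 from 123 and 124.

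Splicing regulators were divided. Of 13 SR protein genes tested, 4 were higher in sh_TDP43 and 5 in sh_SRSF3. SRSF2 was at 83.3 and 76.8 CPM in sh_TDP43, 35.5 and 28.8 in sh_SRSF3, and 138 and 120 in sh_control. TRA2A moved in opposite ways, with 49.7 and 51.7 CPM in sh_TDP43, 78.2 and 81.2 in sh_control, and 110 and 117 in sh_SRSF3. The SR protein kinase gene SRPK2 (direct -1.45), CLK1 (-1.09), CLK4 (-1.09) and the import receptor gene TNPO3 (-1.02) were higher in sh_SRSF3, and SRPK1 (0.57) in sh_TDP43. PTBP1 represses the neuronal exons of many genes, and its paralog PTBP2 among its targets. PTBP1 was at 267 and 241 CPM in sh_TDP43, 147 and 120 in sh_SRSF3, and 671 and 571 in sh_control, a direct difference of 0.93 (SE 0.12, adjusted p = 7.67e-06). PTBP2 was at 14 and 14.4 CPM in sh_TDP43, 53.1 and 58.4 in sh_SRSF3, and 15.3 in each control library, a direct difference of -1.97 (SE 0.12, adjusted p = 6.57e-09). PTBP1 RNA was thus low in both knockdowns and lower in sh_SRSF3, and PTBP2 RNA was raised in sh_SRSF3, with a log2 difference from sh_control of -0.11 in sh_TDP43 (adjusted p = 0.478). Of 31 hnRNP and related genes, 8 were higher in sh_TDP43 and 14 in sh_SRSF3, a lean that ended with upper-quartile scaling (12 and 9). Among the factors that cut and polyadenylate mRNA, CPSF2 stood apart, at 137 and 126 CPM in sh_TDP43, 34.8 and 35.6 in sh_SRSF3, and 146 and 143 in sh_control.

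Known splice targets of TDP43 were also divided, 7 of 24 tested higher in sh_TDP43 and 11 in sh_SRSF3. PFKP, a phosphofructokinase gene, was at 121 and 92.1 CPM in sh_TDP43, 314 and 281 in sh_SRSF3, and 578 and 489 in sh_control, and RANBP1, of nuclear transport, at 81 and 60.3, 202 and 168, and 184 and 144. PPFIA3, a liprin gene, moved in opposite ways, with 8.47 and 8.72 CPM in sh_TDP43, 4.06 and 3.94 in sh_control, and 2.13 and 2.22 in sh_SRSF3. NEAT1, the RNA scaffold of paraspeckles, was at 3175 and 3519 CPM in sh_TDP43, 1009 and 918 in sh_SRSF3, and 381 and 441 in sh_control, a direct difference of 1.80 (SE 0.11, adjusted p = 7.93e-09). It rose in both knockdowns, and more in sh_TDP43. MALAT1, another nuclear RNA, was at 894 and 923 CPM against 755 and 740, a direct difference of 0.28 (SE 0.14, adjusted p = 0.0956).

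Extracellular matrix, invasion and Notch genes were looked at as separate lists. Of 28 extracellular matrix genes tested, 14 were higher in sh_TDP43 and 5 in sh_SRSF3, with a median of 0.53 (0.32 without sh_TDP43 replicate 2). Against sh_control, 14 fell and 2 rose in sh_TDP43 (median -0.36), and 20 fell and 4 rose in sh_SRSF3 (median -1.54). HSPG2, the basement membrane proteoglycan perlecan, was 1 of the 2 that rose in sh_TDP43. It was at 369 and 385 CPM in sh_TDP43, 148 and 187 in sh_control, and 37.3 and 41.6 in sh_SRSF3. Its direct difference was 3.26 (SE 0.12). The laminin genes LAMA5 (2.28) and LAMB1 (2.09) were also higher in sh_TDP43, and LAMB3 (-0.95) in sh_SRSF3. Of 20 invasion proteases and integrins, 10 were higher in sh_TDP43 and 6 in sh_SRSF3, the latter near the share over all genes. Their median of 0.51 was 0.20 without sh_SRSF3 replicate 1 and 0.78 without sh_SRSF3 replicate 2. Against sh_control, 16 of them fell in each knockdown, while 2 rose in sh_TDP43 and 0 in sh_SRSF3. The inhibitor TIMP3 was at 186 and 216 CPM in sh_TDP43, 31.5 and 37 in sh_SRSF3, and 366 and 524 in sh_control, and ITGB4 at 249 and 263, 79.8 and 75.2, and 403 and 490, so both fell in each knockdown and further in sh_SRSF3. The collagen receptor subunit gene ITGB1 was at 516 and 429 CPM in sh_TDP43, 995 and 1016 in sh_SRSF3, and 1056 and 994 in sh_control. Among Notch genes, which encode receptors, ligands and targets of a contact-dependent pathway, 11 of 19 were higher in sh_TDP43 and 3 in sh_SRSF3. Against sh_control, 11 Notch genes fell and 2 rose in sh_TDP43 (median -0.60), and 15 fell and 3 rose in sh_SRSF3 (median -1.54). The receptor gene NOTCH2 moved in opposite ways, at 557 and 547 CPM in sh_TDP43, 363 and 451 in sh_control, and 205 and 201 in sh_SRSF3. So did ADAM17, the protease that sheds receptors and ligands of several pathways, at 16.9 and 20.2, 29 and 30.8, and 73 and 86.9. The target gene HES1 was at 40.2 and 33.7 CPM in sh_TDP43, 12.3 and 13.4 in sh_SRSF3, and 64.5 and 57.1 in sh_control.

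Epithelial genes had no common direction, 8 of 20 tested higher in sh_TDP43 and 4 in sh_SRSF3, with a median that ranged from -0.02 to 0.35 over the alternatives. CDH1, E-cadherin, was at 15.1 and 15.7 CPM in sh_SRSF3, 2.42 and 2.81 in sh_TDP43, and 1.02 and 1.51 in sh_control. MUC1, a membrane mucin, was at 61.5 and 68.1 CPM in sh_TDP43, 10.3 and 16.3 in sh_control, and 6.1 and 6.43 in sh_SRSF3, and CLDN1, of tight junctions, at 17.4 and 20.6, 3.63 and 4.93, and 1.71 and 1.27. PKP2, of desmosomes, was at 589 and 528 CPM in sh_SRSF3 and 130 and 119 in sh_TDP43. Among mesenchymal genes TGFB2 was higher in sh_TDP43, at 340 and 272 CPM against 79.5 and 63.4 with 189 and 178 in sh_control, and the receptor kinase gene AXL was higher in sh_SRSF3, at 1439 and 1342 against 460 and 401 with 1731 and 1499. The polarity gene PARD3 had a direct difference of -0.29 (adjusted p = 0.0141), a call lost with upper-quartile scaling (adjusted p = 0.688), without sh_SRSF3 replicate 2 (adjusted p = 0.201) and without sh_TDP43 replicate 1 (adjusted p = 0.106), and NUMB one of 0.18 (adjusted p = 0.144).

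EGF receptor and RAS signalling genes had no common direction, with 6 of 22 tested higher in sh_TDP43, 10 in sh_SRSF3 and a median of -0.06 that was 0.19 with upper-quartile scaling. Differences ran from -2.82 for AREG to 2.44 for PDGFRB, a growth factor receptor gene. NRAS, a RAS GTPase, was at 51.9 and 49.1 CPM in sh_TDP43, 172 and 173 in sh_control, and 323 and 330 in sh_SRSF3. CAV1, the main caveolar protein and no member of that list, was at 286 and 218, 779 and 803, and 1173 and 1170. Of 25 apoptosis regulators, 13 were higher in sh_SRSF3 and 1 in sh_TDP43, with a median of -0.52; with upper-quartile scaling the counts were 12 and 5. They hold genes of both signs in cell death. The inhibitor BCL2L1 was at 277 and 256 CPM in sh_TDP43, 913 and 799 in sh_SRSF3, and 806 and 774 in sh_control. BBC3, which promotes death and is a p53 target, was at 13.7 and 17.9 CPM in sh_SRSF3 and 3.15 and 3.96 in sh_TDP43. Ribosomal protein genes, oxidative phosphorylation genes, mitochondrially encoded genes, hypoxia genes, cholesterol genes and histone genes had medians between -0.12 and -0.05, each of which changed sign with upper-quartile scaling, so no direction is given for them.

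The RIP libraries ask whether RNAs recovered with each protein differ between genes higher in 1 knockdown and genes higher in the other. Values are log2((RIP + 1) / (input + 1)) of FPKM, for the 8148 tested genes with at least 1 FPKM in both inputs, and with 1 library of each kind there is no test. Over all 8148 genes the median was -0.04 for Flag-TDP43 and 0.12 for Flag-SRSF3. Genes higher in sh_TDP43, thus lower in sh_SRSF3, had medians of -0.15 and 0.27 (2404 genes), and genes higher in sh_SRSF3 had 0.05 and 0.01 (3490 genes). For each protein, the genes lower in its own knockdown than in the other were the ones with the higher median in its RIP. These classes rest on the direct comparison, and not every gene in them fell from sh_control with that hairpin. The shift between classes was small beside the spread of genes: in the Flag-SRSF3 RIP the middle 50% of genes ran from -0.2 to 0.75 in the first class and from -0.42 to 0.48 in the second. Across the 8148 genes the Spearman correlation with the direct difference was -0.09 for the Flag-TDP43 RIP and 0.15 for the Flag-SRSF3 RIP. Levels in sh_control went with the classes as well: the median was 16.6 CPM over all 5041 genes higher in sh_TDP43 and 45.8 over all 4801 higher in sh_SRSF3. Among the 8148 genes the gap was smaller. There the median was 49.2 CPM for genes more than 4-fold higher in sh_SRSF3 and 26 for those more than 4-fold higher in sh_TDP43. Groups between them had 40.6 to 61.9 CPM. The part of level in the RIP medians was not tested.

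**Figure D5:**
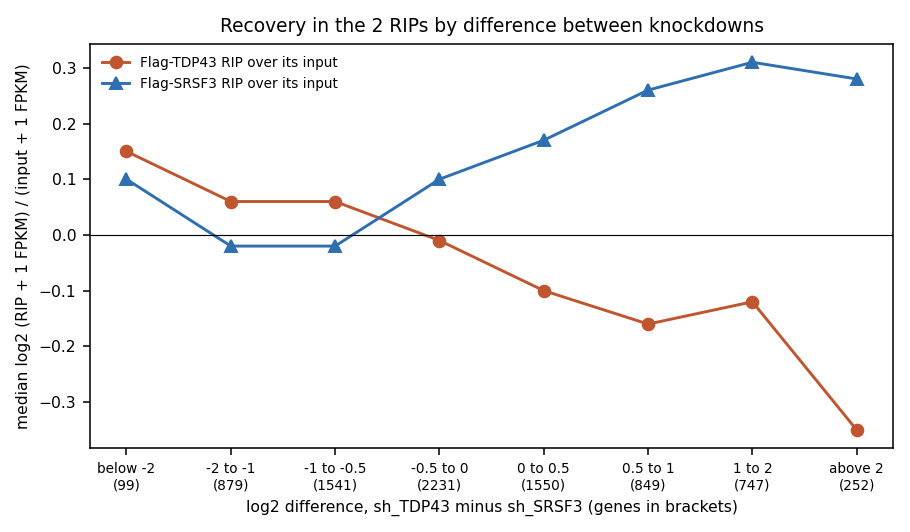
Median log2 (RIP + 1 FPKM) / (input + 1 FPKM) in the Flag-TDP43 RIP (circles) and the Flag-SRSF3 RIP (triangles) for genes grouped by their log2 difference between the knockdowns, number of genes in brackets. From the leftmost to the rightmost group the TDP43 medians go from 0.15 to -0.35 and the SRSF3 medians from 0.10 to 0.28, with 1 library of each kind and no error.

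At the ends of the range, the 99 genes more than 4-fold higher in sh_SRSF3 had medians of 0.15 in the Flag-TDP43 RIP and 0.10 in the Flag-SRSF3 RIP, and the 252 more than 4-fold higher in sh_TDP43 had -0.35 and 0.28. The order between them was not even: the Flag-SRSF3 medians were -0.02 in both groups next to the lowest and 0.31 in the group next to the highest. Single genes went with this order or against it. NRAS, low in sh_TDP43, was at 65.9 FPKM in the Flag-TDP43 RIP and 21.5 in its input, and at 14.9 and 22.9 for Flag-SRSF3. PTBP1, lowest in sh_SRSF3, was at 86.1 FPKM in the Flag-SRSF3 RIP and 24.3 in its input, and at 10.8 and 14.8 for Flag-TDP43. CAV1 and MYBL2, both low in sh_TDP43, were recovered less in the Flag-TDP43 RIP than in its input (38.1 against 90.6 FPKM, and 9.56 against 17.9). These 4 were chosen after their values were seen.

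Genes that moved in opposite ways were ordered in level as all called genes of the same direction, given above. Median control level was 57.9 CPM for those up in sh_SRSF3 and 19.2 for those up in sh_TDP43, against 22.5 over all genes tested. Median exonic length was 5689 bases for those up in sh_TDP43, 5091 for those up in sh_SRSF3 and 4698 over all genes tested. The part of level and length in these calls was not tested.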

How the data were processed

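RNA-seq libraries of MDA-MB231 cells were taken by their titles: 2 each of sh_TDP43, sh_SRSF3 and sh_control. The deposited values are raw read counts per gene, made by the authors with featureCounts 1.4.6-p5 over exons, with no strand or read-pair option, per the file headers. Both reads of a pair can therefore count, and 67.6% of counts from 1 to 20 are even. The submitters' processing notes also list GRCh37, Cufflinks, StringTie 1.3.0, STAR 2.5.2a and HISAT2 2.0.5, without their role. For RIP, the authors deposited FPKM, per the file headers, and a second table with a normalised signal of unstated unit. Both also hold the authors' deposited log2 of RIP over input, not used in the values printed. Per-sample columns matching no label numbered 2 and were not used, and the combined knockdown was not analysed here.

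Counts of 15026 of 27745 genes (filterByExpr) were tested in 1 edgeR 4.0.16 fit in R 4.3.3 (TMM, quasi-likelihood F-test, two-sided, 6 libraries, 3 residual degrees of freedom), with Benjamini-Hochberg adjustment over all genes and calls under 0.05. SE is the log2 difference divided by the root of F. The procedure was run on simulated counts with a shared spread for all genes and few genes changed. It called 42 of 65 genes changed 1.5-fold, 62 of 66 changed 2-fold and 65 of 65 changed 4-fold, and 8 unchanged genes. The data differ from these settings in spread and in the share of genes called, so no error rate for them follows. Separate cultures are not named, so p-values reflect only how far the duplicates lie apart, possibly technical variation.

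Members and lists were chosen with earlier results of these data known. Named were 8 fixed genes and the 12 largest differences per direction (mean of at least 5 CPM). The 12 largest opposite movers per direction (at least 2 CPM) were named as well. Both rankings took only called genes whose groups did not overlap. From each list, up to 3 members in the direction of its median and up to 2 the other way were named. Other list members named were chosen after their values were seen. Promoters are from RefSeq (GRCh38.p14), matched by symbol or gene ID for 11497 of the genes tested; files' coordinates are GRCh37. Alternatives were DESeq2 1.42.0, upper-quartile and RLE scaling, no filter, 4 libraries only, a replicate block, a threshold of 0.01 and each library left out, and for RIP a pseudocount of 0.1 FPKM, a lower input minimum and the second table. Some results on single genes are not reported here.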

Additional observations from a re-analysis of the deposited data

How the results depend on the processing

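Upper-quartile scaling moved the median difference of all genes by 0.25, and gave 973 genes at least 2-fold higher in sh_SRSF3, 907 genes up in sh_TDP43 and down in sh_SRSF3 (410 of them at least 1.5-fold each) and 473 the other way (104 at least 1.5-fold each). The cause was not tested. At an adjusted p under 0.01, opposite movers numbered 789, of which 295 were up in sh_TDP43 (176 at least 1.5-fold each) and 494 up in sh_SRSF3. With 1 library left out, called genes ranged from 8268 to 10165, those higher in sh_TDP43 from 4242 to 5155 (at least 2-fold 2633 to 3025) and those higher in sh_SRSF3 from 4026 to 5013 (at least 2-fold 1408 to 1624). Opposite movers ranged from 811 to 1149, those up in sh_TDP43 from 317 to 517 (at least 1.5-fold each 178 to 265) and those up in sh_SRSF3 from 494 to 674 (158 to 210), the lowest count of all without sh_TDP43 replicate 2. A lone library is then assumed to vary like the other groups. With the replicate number as a block, 5301 and 5112 genes were called, and 1726 moved in opposite ways, 1354 of them among the 1357. Deviations of same-numbered libraries from their group means had weak positive correlations (0.107, 0.056 and 0.080). Whether such libraries share more than a number is not stated in the labels. In the second deposited RIP table, used after seeing the data, medians of genes higher in sh_SRSF3 changed sign, to -0.03 for Flag-TDP43 and -0.11 for Flag-SRSF3, while the medians of all genes also fell, to -0.12 and 0.01. For the genes picked by the naming rules above, 5815 single-gene values were taken under an alternative. Of them 5571 kept direction and side of the threshold, 237 lost a call, 7 gained one and 0 changed sign. Most of these genes were picked for their calls in the same libraries, so these counts do not measure how other calls hold. Of all 1357 opposite movers, 552 kept both calls in each of 11 alternatives with control libraries, which leave out the threshold of 0.01. The 1 library of each kind limits the precision of the RIP values, and genes with few reads in sh_SRSF3 limit the size of any fold toward sh_TDP43.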

Other observations

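Host transcripts of microRNAs were not among the lists and were looked at after the other values were seen. Of 15 tested, 5 were higher in sh_TDP43 and 3 in sh_SRSF3, no more than the 33.5% and 32% over all genes tested. MIR137HG, from which miR-137 is made, moved in opposite ways, with 62.1 and 66.2 CPM in sh_TDP43, 33.4 and 27.2 in sh_control, and 16.3 and 11.4 in sh_SRSF3, a direct log2 difference of 2.21 (SE 0.16, edgeR adjusted p = 3.08e-08). The mature product was not measured. Its RefSeq sequence, with the seed (bases 2 to 8) in capitals, is shown to identify it.
hsa-miR-137-3p: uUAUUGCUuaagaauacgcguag
MIR4435-2HG, a long transcript, was at 201 and 215 CPM in sh_SRSF3, 88 and 91.5 in sh_TDP43, and 97.3 and 100 in sh_control.

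Of the 283 tested genes with at most 3 reads over both sh_SRSF3 libraries and the 21 with as few in sh_TDP43, some are given as reads because no fold can be set against so few. ALDH3A1, an aldehyde dehydrogenase gene, had 149 and 120 reads in sh_TDP43, 0 in both sh_SRSF3 libraries, and 20 and 44 in sh_control. KRT4, a keratin of stratified epithelium, had 89 and 72 reads in sh_TDP43 and 0 in the other 4 libraries. TERC, the RNA template of telomerase, had 76 and 48 reads in sh_TDP43, 3 and 0 in sh_SRSF3, and 104 and 52 in sh_control. In the other direction, the unnamed genes ENSG00000227552 and ENSG00000231182, both on chromosome 1, had 240 and 500, and 167 and 427 reads in sh_SRSF3, against 2 and 0 in sh_TDP43 and 0 in sh_control for each. These genes were chosen after their values were seen.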
